A study of Mus musculus with 28 samples.

Results

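Medullary thymic epithelial cells of the MHC-low subset (mTEClo) that lacked Hnf4a were compared directly with mTEClo that lacked Hnf4g, gene by gene. The samples were taken by their labelled genotype and subset: 3 Hnf4a-removed and 3 Hnf4g-removed samples, 6 of 28 in the series. All 6 came from thymus of C57BL/6 mice, were labelled post-Aire mTEClo and carried 1 copy of Foxn1-Cre, which is driven by a promoter active in thymic epithelium at large and not in mTECs alone. Hnf4a-removed mice were Hnf4a fl/fl and Hnf4g +/-. Hnf4g-removed mice were Hnf4a fl/+ and Hnf4g -/-, and the notation of this Hnf4g allele names no conditional deletion. Each group thus kept 1 allele of the gene that the other group lacked, and neither group is a wild type. Double-mutant mTEClo (Hnf4a fl/fl, Hnf4g -/-, n = 4) and control mTEClo (Hnf4a fl/+, Hnf4g +/-, n = 4), both with Foxn1-Cre, are given beside them, as are wild-type mTECs sorted inside (n = 3) and outside (n = 3) an entero-hepato gate. Ages and sexes are not given in the labels. Of 55011 genes in the count table, 18775 had enough reads to be tested.

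HNF4A and HNF4G are paralogous nuclear receptors that bind the same type of DNA site and switch on genes of the intestine and the liver. In the gut epithelium both are present and share many target genes, whereas the adult hepatocyte relies mainly on HNF4A. The thymic medulla holds small numbers of mimetic mTECs, cells that take on programs of peripheral tissues such as enterocytes, hepatocytes, microfold cells (the antigen-sampling cells over gut lymphoid tissue), tuft cells or airway goblet cells, and so display those tissues' proteins to developing T cells.

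The 6 libraries held 5504278 to 7112967 counts each (6442242 to 6918344 in Hnf4a-removed and 5504278 to 7112967 in Hnf4g-removed mTEClo). Pearson correlations of log2 expression were 0.921 to 0.946 between samples of a group, and no replicate pair agreed within sampling noise (chi-square per degree of freedom 10.8 to 24.2). Samples of different groups correlated at 0.917 to 0.944 (chi-square per degree of freedom 11 to 28). The ranges overlap, so whole profiles did not set the genotypes apart by this measure. Of the compared samples, Hnf4g-removed replicate 1 had the lowest correlations with the others. Nothing in the labels ties the samples of a group to separate mice, so the spread behind each p-value is that of these samples and may be technical. Markers of the labelled cell were abundant: the 14 medullary epithelial genes (Epcam, keratins, claudins, MHC class II, Aire and others) summed to 11040 to 15090 CPM (counts scaled to a common total) in Hnf4a-removed and 9017 to 15360 CPM in Hnf4g-removed samples. Blood cell markers were low beside these. The 17 thymocyte genes summed to 86.1 to 107 CPM in Hnf4a-removed and 109 to 124 CPM in Hnf4g-removed mTEClo, which did not overlap. In Hnf4a-removed samples the 16 myeloid and dendritic genes summed to 631 to 1050 CPM, the 10 B cell genes to 251 to 275 CPM, the 13 fibroblast genes to 151 to 205 CPM and the 13 endothelial genes to 205 to 231 CPM. In Hnf4g-removed samples the myeloid sum was 276 to 722 CPM, the B cell sum 192 to 285 CPM, the fibroblast sum 100 to 223 CPM and the endothelial sum 170 to 268 CPM, overlapping in each. Of 5 sex-linked genes, the Y-linked Ddx3y, Eif2s3y and Uty were at 0 in all 6 samples. Xist averaged 708 CPM in Hnf4a-removed and 705 CPM in Hnf4g-removed mTEClo. The remaining gene had reads in these samples, but too few to be tested.

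The targeted genes themselves were low and did not separate the genotypes. Hnf4a was at 3.02, 4.67 and 2.55 CPM in the 3 Hnf4a-removed samples, against 3.71, 4.07 and 2.38 CPM in the 3 Hnf4g-removed samples. These overlap, and the log2 fold change (Hnf4a-removed over Hnf4g-removed, as throughout) was 0.02 (SE 0.47, 95% interval -0.99 to 1.03, adjusted p = 0.997). Hnf4g was at 9.52, 7.74 and 6.22 CPM in Hnf4a-removed and 9.09, 7.61 and 7.85 CPM in Hnf4g-removed samples, again overlapping, with a log2 fold change of -0.06 (SE 0.34, 95% interval -0.79 to 0.66). Counts were made over whole genes, and the labels do not name the part of either gene that was deleted, so these values do not check the genotypes. For scale, the wild-type entero-hepato gate had 47.4 ± 16.5 CPM of Hnf4a against 5.55 ± 0.405 CPM outside it, and 140 ± 26.4 CPM of Hnf4g against 18.1 ± 1.61 CPM outside it (SD, n = 3 each). Aire, the transcription factor of the stage before mimetic cells, was at 187, 426 and 461 CPM in Hnf4a-removed and 169, 719 and 644 CPM in Hnf4g-removed samples, with replicate 1 lowest in both groups and an adjusted p of 0.848.

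Between the genotypes, 11 genes were higher in Hnf4a-removed mTEClo (0.0586% of genes tested) and 1 was lower (0.00533%), at an adjusted p under 0.05 by edgeR's quasi-likelihood test. The 11 higher genes were the chemokines Ccl6 and Ccl9, the ubiquitin ligase Trim31, the fatty acid carrier Fabp1, the lysozyme Lyz1, the brush border genes Cdhr5 and Calml4, the protease inhibitor Serpinb6a, and Agrn, Rhoc and Serinc3. The gene that was lower was Slc25a37, which imports iron into mitochondria. In each of these 12 genes the 3 samples of one genotype lay apart from the 3 of the other. At an unadjusted p under 0.05 there were 637 genes higher (3.39%) and 811 lower (4.32%), and with no overlap between the samples there were 1042 higher (5.55%) and 1086 lower (5.78%). With 3 samples a group, an exact permutation test of a single gene cannot go below 0.1, so the calls rest on the spread shared across genes.

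**Figure D1:**
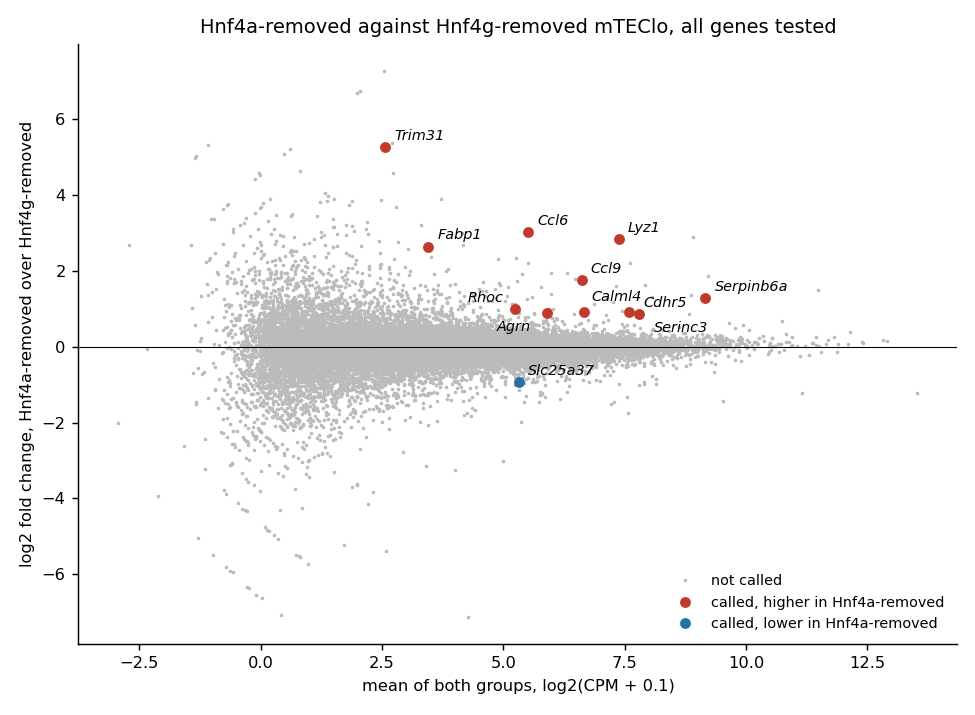
Log2 fold change of Hnf4a-removed over Hnf4g-removed mTEClo (y axis) against the mean level of both groups as log2(CPM + 0.1) (x axis), 1 point a gene, 18775 genes. The 11 genes called higher are red and the 1 called lower is blue; many grey points with larger fold changes are genes of few reads.

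The largest called difference was that of Trim31, an E3 ubiquitin ligase of innate immune signalling that is found in gut epithelium. It was at 13.8, 9.93 and 10.4 CPM in Hnf4a-removed samples, against 0.185, 0.354 and 0.281 CPM in Hnf4g-removed samples, where it had 1, 2 and 2 reads. All 3 Hnf4a-removed samples were thus far above the other 3, and the log2 fold change was 5.28 (SE 0.70, 95% interval 3.79 to 6.76, adjusted p = 0.0106). The double mutant had 1.45 ± 1.05 CPM and the control 12.2 ± 4.60 CPM (SD, n = 4 each), so the Hnf4a-removed mean was near the control's and the Hnf4g-removed mean was below even the double mutant's. Inside the wild-type gate Trim31 was at 190 ± 24.7 CPM, against 17.4 ± 2.32 CPM outside it.

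The chemokines CCL6 and CCL9, which draw monocytes and other myeloid cells in the mouse, are products of neighbouring genes on chromosome 11 and mark microfold cells. Ccl6 was at 83.0, 60.9 and 98.4 CPM in Hnf4a-removed samples, against 17.8, 10.6 and 2.10 CPM in Hnf4g-removed samples. The groups did not overlap, and replicate 3 held both the highest and the lowest of the 6 values (log2 fold change 3.02, SE 0.49, adjusted p = 0.0263). Ccl9 was at 148, 138 and 168 CPM in Hnf4a-removed samples, against 46.5, 63.0 and 24.5 CPM in Hnf4g-removed samples, with the same sample lowest (1.77, SE 0.25, adjusted p = 0.0106). Both chemokines are also made by myeloid cells, whose marker sums are given above. Among those markers Lyz2 had 455, 442 and 867 CPM in Hnf4a-removed and 153, 488 and 331 CPM in Hnf4g-removed samples. Cd68 had 10.9, 11.8 and 12 CPM in Hnf4a-removed and 13.0, 15.6 and 16.4 CPM in Hnf4g-removed samples. Lyz2 overlapped and Cd68 was lower in all 3 Hnf4a-removed samples. Itgam, at 4.38 CPM in Hnf4a-removed and 2.26 CPM in Hnf4g-removed mTEClo, was higher in all 3 Hnf4a-removed samples (0.94, SE 0.41, adjusted p = 0.622). Of the 12 tested genes of that list, 5 had a fold change above 0, and the median was -0.04; the part of myeloid cells in the chemokine values was not tested.

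Trim31, Ccl6 and Ccl9 were the 3 called genes whose promoter held the letters CAAAGNNCA on either strand (TGNNCTTTG on the other), the core of the site that HNF4 proteins bind. Their promoters are shown for that reason, from 250 bases before to 50 after the start site, 5′ to 3′ on the gene's strand (RefSeq, GRCm38.p6), with the matching letters in capitals. That of Trim31 lies at chr17:36897880-36898179 on the plus strand, that of Ccl6 at chr11:83593038-83593337 on the minus strand and that of Ccl9 at chr11:83578587-83578886 on the minus strand.
Trim31 promoter: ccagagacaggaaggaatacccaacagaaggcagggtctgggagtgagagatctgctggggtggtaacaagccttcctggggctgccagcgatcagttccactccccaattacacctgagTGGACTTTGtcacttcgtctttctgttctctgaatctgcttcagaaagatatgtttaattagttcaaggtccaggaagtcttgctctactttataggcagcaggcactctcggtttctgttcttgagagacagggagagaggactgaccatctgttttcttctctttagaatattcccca
Ccl6 promoter: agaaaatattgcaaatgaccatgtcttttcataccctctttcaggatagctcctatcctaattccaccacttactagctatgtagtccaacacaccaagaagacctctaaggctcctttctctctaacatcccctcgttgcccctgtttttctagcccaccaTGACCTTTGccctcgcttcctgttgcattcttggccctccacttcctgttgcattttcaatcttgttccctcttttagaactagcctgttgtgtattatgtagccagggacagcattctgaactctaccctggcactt
Ccl9 promoter: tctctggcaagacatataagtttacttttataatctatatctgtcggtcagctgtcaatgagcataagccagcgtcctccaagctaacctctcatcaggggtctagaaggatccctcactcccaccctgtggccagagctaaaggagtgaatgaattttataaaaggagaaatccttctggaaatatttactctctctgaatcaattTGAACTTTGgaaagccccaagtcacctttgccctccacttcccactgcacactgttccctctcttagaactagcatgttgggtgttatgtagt
The match began 130 bases before the start site in Trim31, 88 in Ccl6 and 43 in Ccl9. Of the 12 called genes 11 had a promoter in the table, and 3 of these (27.3%) held the letters, against 873 of 13381 genes tested (6.52%) and 2089 of the 32851 promoters searched (6.36%). The search left out a chromosome and counted only promoters of full length. A match is a description of these letters and not a bound site, and its absence in the other 8 says nothing of sites elsewhere.

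Of the gut genes, Fabp1, the liver-type fatty acid binding protein of enterocytes and hepatocytes, was at 20.9, 14.6 and 20.9 CPM in Hnf4a-removed samples, against 2.97, 3.36 and 2.67 CPM in Hnf4g-removed samples. The groups were far apart, and the Hnf4g-removed samples lay close together (log2 fold change 2.64, SE 0.41, adjusted p = 0.0208). Lyz1, the lysozyme of Paneth cells, was at 223, 397 and 258 CPM in Hnf4a-removed and 19.7, 56.0 and 45.9 CPM in Hnf4g-removed samples. Its log2 fold change was 2.85 (SE 0.46, adjusted p = 0.0261), and how the counting divided reads between Lyz1 and its close copy Lyz2 is not stated in the labels. In double-mutant mTEClo Fabp1 averaged 3.12 ± 0.547 CPM and Lyz1 35.6 ± 19.8 CPM, against 28.4 ± 14.1 CPM and 368 ± 164 CPM in the control (SD, n = 4 each). Hnf4g-removed samples were thus at the double mutant's level in both genes.

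Cdhr5 and Calml4 encode parts of the intermicrovillar adhesion complex, the links that hold the tips of brush border microvilli together. Cdhr5, a protocadherin, was at 207, 276 and 268 CPM in Hnf4a-removed samples, against 149, 138 and 114 CPM in Hnf4g-removed samples. Calml4, a calmodulin-like light chain of the complex, was at 128, 121 and 151 CPM in Hnf4a-removed samples, against 78.5, 59.9 and 72.8 CPM in Hnf4g-removed samples. Neither overlapped, and both differed by a little under 1 on the log2 scale (0.91, SE 0.14, adjusted p = 0.0208 for Cdhr5 and 0.92, SE 0.13, adjusted p = 0.0106 for Calml4). The genes part in the double mutant, where Calml4 averaged 76.5 ± 8.10 CPM, close to Hnf4g-removed samples, and Cdhr5 174 ± 23.8 CPM, above their 134 ± 18.3 CPM. The double-mutant samples of Cdhr5 (144 to 197 CPM) overlapped with the Hnf4g-removed ones, and the control averaged 231 ± 15.2 CPM. Against the control, Cdhr5 in double-mutant mTEClo did not pass (log2 fold change -0.41, adjusted p = 0.156 by edgeR). In the MHC-high subset, mTEChi, it averaged 44.2 CPM in the double mutant and 164 CPM in the control (log2 fold change -1.90, adjusted p = 0.000417 by edgeR).

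Serpinb6a, an intracellular inhibitor of serine proteases, was the most abundant called gene. It had 710, 693 and 1038 CPM in Hnf4a-removed samples, against 310, 371 and 326 CPM in Hnf4g-removed samples (log2 fold change 1.28, SE 0.18, adjusted p = 0.0106). It has close copies in the mouse genome, whose reads the authors' counting could have shared out. Agrn, the basement membrane proteoglycan agrin, was at 80.6, 65.7 and 86.7 CPM in Hnf4a-removed and 44.5, 36.5 and 44.5 CPM in Hnf4g-removed samples (0.89, SE 0.14, adjusted p = 0.0208). Rhoc, a small GTPase of the actin cytoskeleton, was at 49.1, 47.2 and 53.9 CPM in Hnf4a-removed and 28.2, 25.1 and 22.7 CPM in Hnf4g-removed samples (0.98, SE 0.17, adjusted p = 0.0464). The groups lay apart in all 3 genes.

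Serinc3, a membrane protein of the family named serine incorporators, had the smallest p of all genes tested. It was at 310, 299 and 254 CPM in Hnf4a-removed samples, against 166, 160 and 146 CPM in Hnf4g-removed samples (log2 fold change 0.87, SE 0.10, 95% interval 0.65 to 1.09, adjusted p = 0.00680). The double mutant had 336, 315, 337 and 291 CPM and the control 164, 156, 184 and 167 CPM. High values thus stood in the pair of groups that were Hnf4a fl/fl and low values in the pair that were Hnf4a fl/+, with no overlap. The labels do not give the origin of the DNA around the floxed allele, so loss of Hnf4a and any difference linked to that allele cannot be told apart here. The other 10 higher genes had means below the control's in both groups that were Hnf4g -/-. Serinc3 lies 50.4 kb beyond the end of Hnf4a on chromosome 2 (163623272 to 163645131, minus strand, GRCm38). Against the control, its log2 fold change was 0.78 in Hnf4a-removed mTEClo (adjusted p = 0.00972) and 0.93 in the double mutant (adjusted p = 0.000311); these contrasts share the control samples. In mTEChi, the MHC-high subset, it averaged 217 ± 19.0 CPM in the double mutant and 142 ± 13.8 CPM in the control (n = 4 each, log2 fold change 0.61, adjusted p = 0.0255 by edgeR).

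Slc25a37, mitoferrin 1, was the single gene called lower. It was at 28.1, 27.0 and 27.4 CPM in Hnf4a-removed samples, against 54.2, 52.6 and 50.8 CPM in Hnf4g-removed samples, with little spread in either group (log2 fold change -0.93, SE 0.13, 95% interval -1.20 to -0.66, adjusted p = 0.0106). The double mutant averaged 41.3 ± 4.25 CPM and the control 39.2 ± 3.27 CPM (SD, n = 4 each), so these means lay between those of the single mutants. Neither single mutant passed against the control (log2 fold change -0.51, adjusted p = 0.706 for Hnf4a-removed and 0.42, adjusted p = 0.272 for Hnf4g-removed mTEClo). Both of those contrasts share the control samples, and each shares its mutant samples with the direct comparison. Erythroid genes, whose cells use this importer for heme, were low: the list summed to 16.8 to 28.3 CPM in Hnf4a-removed and 10.2 to 32.2 CPM in Hnf4g-removed samples.

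**Figure D2:**
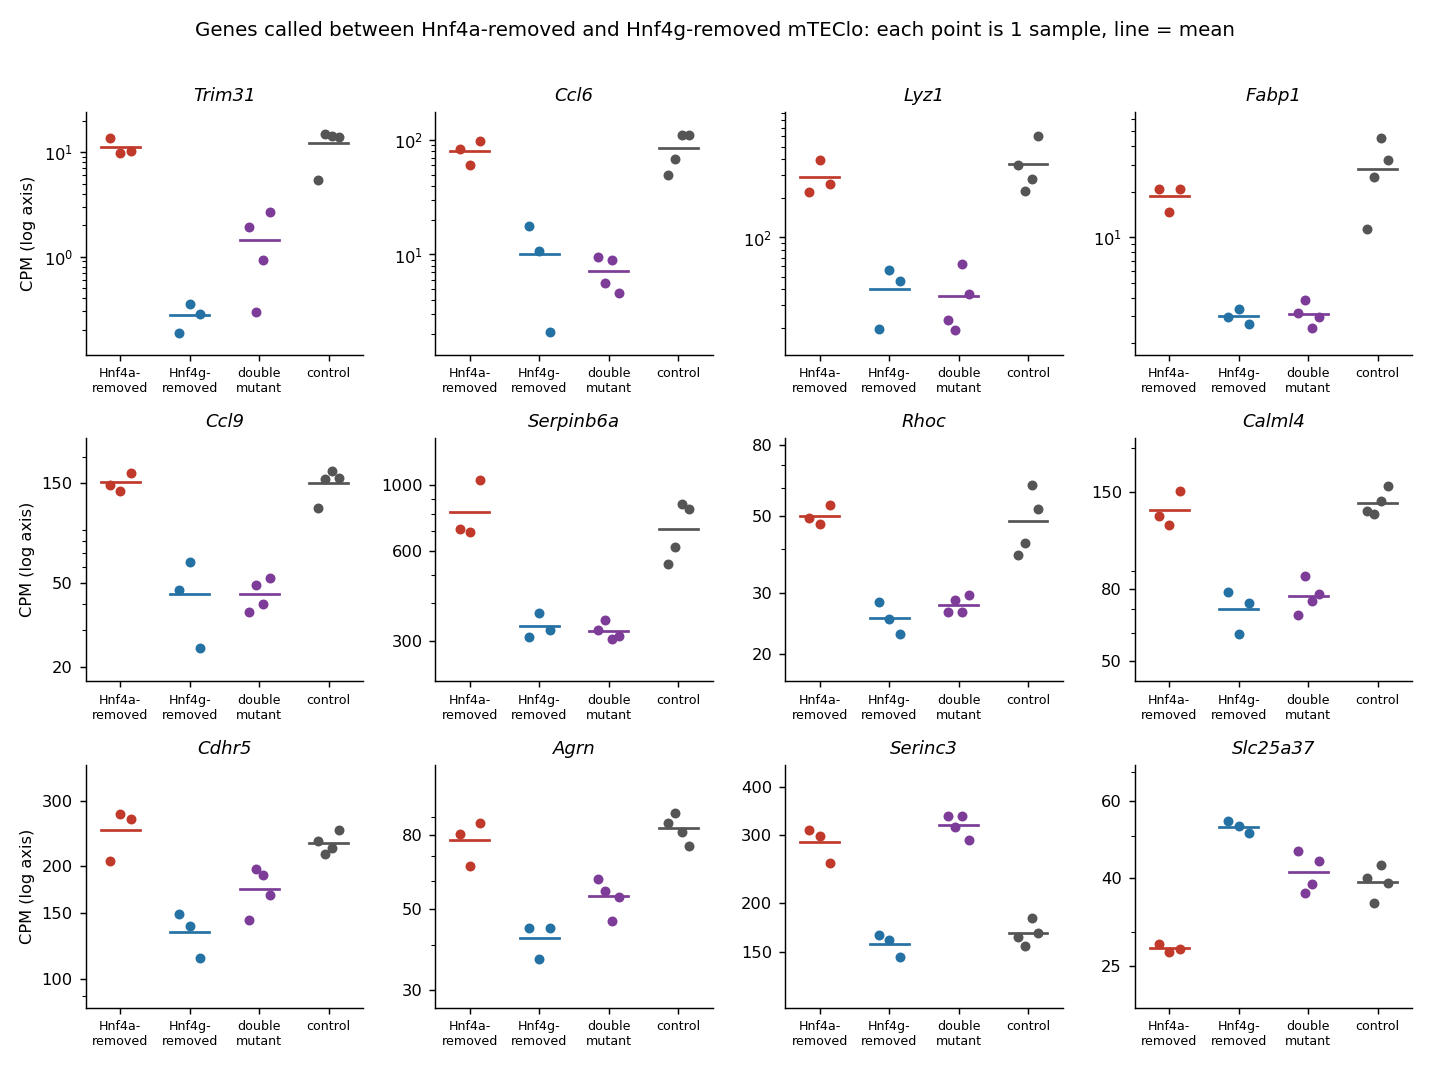
Level of each called gene in CPM (log axes) in every Hnf4a-removed (n = 3), Hnf4g-removed (n = 3), double-mutant (n = 4) and control (n = 4) mTEClo sample; points are samples and lines are means. In 10 of the panels the Hnf4g-removed and double-mutant points lie low and the Hnf4a-removed and control points high, Serinc3 is high in Hnf4a-removed and double-mutant samples, and Slc25a37 is lowest in Hnf4a-removed and highest in Hnf4g-removed samples.

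The called genes were not equally firm when single samples were left out. Serinc3 and Trim31 kept the call in each of 6 fits that left out 1 compared sample. Ccl9 and Serpinb6a lost it only without Hnf4a-removed replicate 3, Calml4 without that sample or Hnf4g-removed replicate 2, and Slc25a37 without Hnf4a-removed replicate 2 or 3. Ccl6, Cdhr5, Fabp1, Agrn and Lyz1 lost it in 3 or 4 of the 6 fits, which included those without Hnf4a-removed replicate 3 and without Hnf4g-removed replicate 2, and Rhoc in all 6. Of the 12 genes, Ccl6 moved most: its log2 fold change was 3.72 without Hnf4g-removed replicate 1 and 2.51 without Hnf4g-removed replicate 3. Over the 6 fits Ccl9 was between 1.47 and 2.11, Lyz1 between 2.53 and 3.15, Fabp1 between 2.56 and 2.80, Rhoc between 0.91 and 1.07 and Slc25a37 between -0.95 and -0.91. All 12 genes kept their sign in every alternative that was run. The calls also leaned on the double-mutant and control samples, which share the estimate of the spread: with the 6 compared samples fitted alone by edgeR, Trim31 passed (adjusted p = 0.0361) and the other 11 genes had an adjusted p of 0.0993 to 0.188. Limma voom called 8 of the 12 and missed Trim31 (adjusted p = 0.411), Fabp1 (0.486), Ccl6 (0.0643) and Rhoc (0.0849). The whole count was 2 without Hnf4a-removed replicate 3 and 39 without Hnf4g-removed replicate 3, of which 28 were lower.

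All 11 genes called higher were also higher inside the wild-type entero-hepato gate than outside it, by more than 1 on the log2 scale. The gates are separate samples from those compared. Inside the gate Ccl6 averaged 608 ± 11.2 CPM, Fabp1 279 ± 58.8 CPM and Cdhr5 1147 ± 200 CPM, and outside it Ccl6 averaged 13.7 ± 7.25 CPM, Fabp1 12.5 ± 13.7 CPM and Cdhr5 87.5 ± 7.28 CPM (SD, n = 3 each). Agrn averaged 312 ± 54.8 CPM inside and 136 ± 5.47 CPM outside the gate, and Serinc3 179 ± 30.8 CPM inside and 69.5 ± 4.02 CPM outside. Slc25a37 had 38.5 ± 0.761 CPM inside and 42.2 ± 1.58 CPM outside (adjusted p = 0.400). Since mTEClo were sequenced in bulk, fewer cells of the gated type and less RNA of these genes in each cell cannot be told apart.

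The same comparison was then read over lists made from samples other than the 6 compared. The double-mutant and control samples behind the first and the second list enter the shared estimate of the spread, and so the p-values, but not the 2 group means. The first held the 240 genes that were lower in double-mutant than in control mTEClo in a fit of those 8 samples alone (1.43% of 16791 genes tested there). Of these, 9 were called higher in Hnf4a-removed than in Hnf4g-removed mTEClo and 0 lower by edgeR (39 and 0 by DESeq2, 7 and 0 by limma voom), and 98 were higher and 3 lower at an unadjusted p under 0.05. Their samples lay apart in 73 genes in the higher direction and 4 in the lower, and the median log2 fold change was 0.42, beside -0.005 over all genes tested. The shares at an unadjusted p under 0.05 were 40.8% higher and 1.25% lower, beside 3.39% and 4.32% of all genes, and the shares apart were 30.4% higher and 1.67% lower, beside 5.55% and 5.78%. The second list, of 55 genes higher in the double mutant (0.328%), had a median of 0.03, with 8 genes apart in the higher direction (14.5%), Serinc3 among them and called, and 5 in the lower (9.09%).

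The third list held the 2147 genes of the entero-hepato gate, those called inside it with a log2 fold change over 1 (12.8% of 16811 genes). Of these 2020 were tested in mTEClo and 127 had too few reads. The 11 genes called higher all belonged to it, and 263 of its genes were higher and 53 lower at an unadjusted p under 0.05 (13.0% and 2.62% of the list). Its median log2 fold change was 0.11, and that of the 2186 tested genes lower inside the gate was -0.04.

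The genes in both the gate list and the list lower in the double mutant, 154 in all, had a larger median than any of these lists; the overlap was drawn after values had been seen. Of the 154, 146 (94.8%) had a fold change above 0, beside 49.3% of all genes tested, and the median was 0.84. At an unadjusted p under 0.05, 94 were higher and 0 lower, and the samples lay apart in 71, all in the higher direction. By edgeR 9 of them were called higher and 0 lower, by DESeq2 39 and 0 and by limma voom 7 and 0. A log2 fold change over 1 was seen in 68 of them. The 86 genes that were lower in the double mutant but not in the gate list had a median of -0.05, with 4 higher and 3 lower at an unadjusted p under 0.05, which is near the shares over all genes.

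The median log2 CPM of the 154 genes was 5.13, 5.04 and 5.36 in the Hnf4a-removed samples, against 3.88, 4.62 and 4.27 in the Hnf4g-removed samples. All 3 Hnf4a-removed samples were above all 3 others, and Hnf4g-removed replicate 1 was the lowest of the 6. The double mutant had 3.67, 3.82, 3.91 and 4.11 and the control 5.28, 5.24, 5.54 and 5.49; the list was chosen on those 8 samples, so their order is a description. Gene by gene, the Hnf4a-removed mean was below the control's in 115 of 154 and the Hnf4g-removed mean in 151. It was at or below the double mutant's in 0 genes for Hnf4a-removed and in 30 for Hnf4g-removed mTEClo. The list was chosen for high control and low double-mutant values in those same 8 samples. That choice by itself moves other groups below the control and above the double mutant, so these counts are partly set by it. Over all genes tested the sample medians were 3.98 to 4.04 in Hnf4a-removed and 3.99 to 4.02 in Hnf4g-removed samples.

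**Figure D3:**
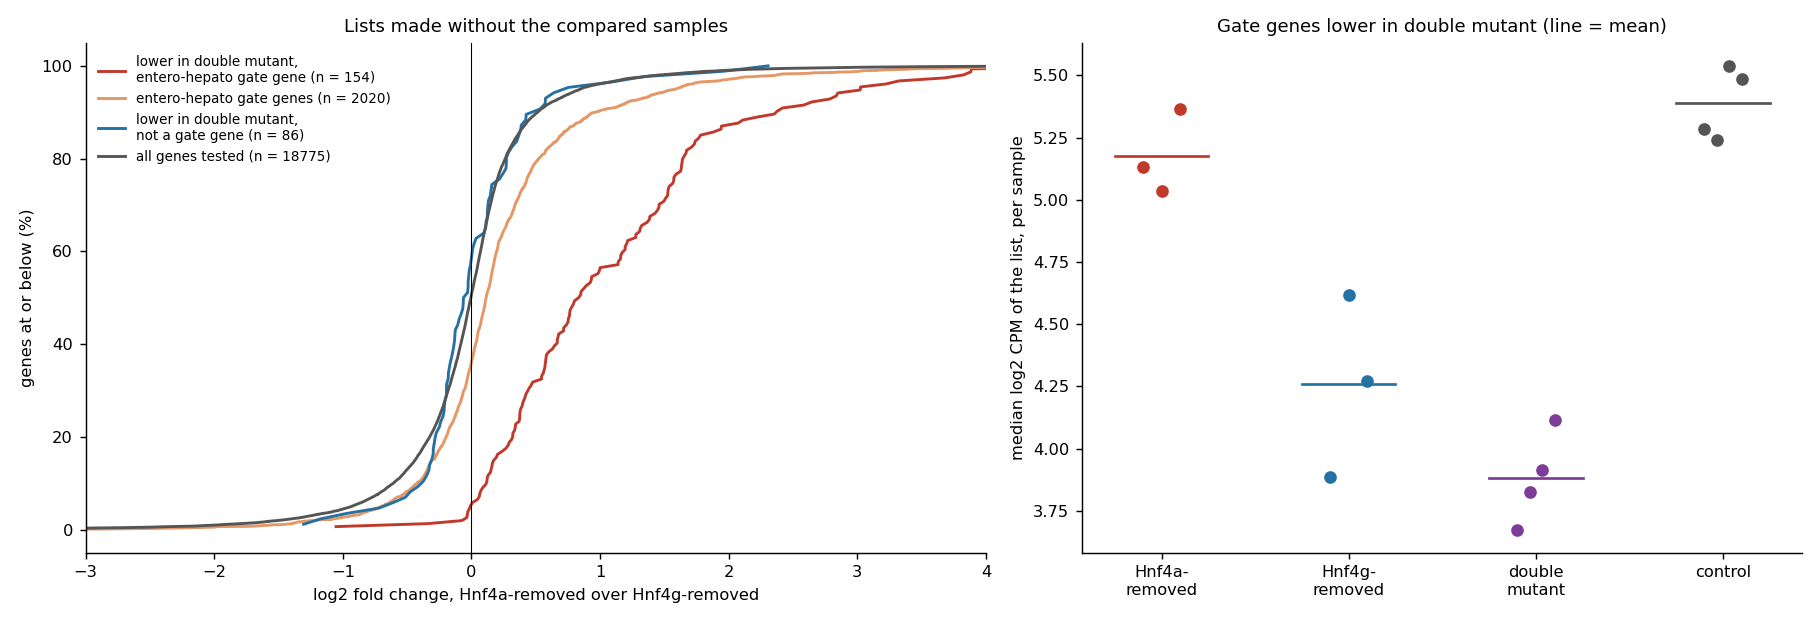
Left, share of the genes of a list (%) at or below each log2 fold change of Hnf4a-removed over Hnf4g-removed mTEClo, for 3 lists made without the compared samples and for all 18775 genes tested. Right, median log2 CPM of the 154 gate genes lower in the double mutant in each sample, with group means as lines. The curve of the 154 genes lies to the right of the rest, that of the 86 genes outside the gate list follows all genes, and the 3 Hnf4a-removed samples lie at 5.04 to 5.36 above the Hnf4g-removed samples at 3.88 to 4.62.

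The 8 members without a fold change above 0 were Pla2g3, Guca2a, Ptgs2, Cyba, Slc6a20a, Srgn, H2-Oa and Ephx2, and their samples overlapped in each. Guca2a, which encodes the gut peptide guanylin, averaged 2.34 CPM in Hnf4a-removed and 4.89 CPM in Hnf4g-removed mTEClo (log2 fold change -1.05, SE 0.92). The other 7 lay between -0.34 and -0.01. Members near the top of the list by p that did not pass were Tmprss2, a membrane protease, at 139 CPM in Hnf4a-removed and 73.0 CPM in Hnf4g-removed mTEClo (0.93, SE 0.17, adjusted p = 0.0633), and Gsap at 68.8 CPM in Hnf4a-removed and 43.4 CPM in Hnf4g-removed mTEClo (0.67, SE 0.13, adjusted p = 0.0694). The MHC class II genes H2-Aa and H2-Ab1 are also among the 154: in Hnf4a-removed mTEClo they averaged 1894 and 3912 CPM, and in Hnf4g-removed mTEClo 1740 and 3716 CPM (log2 fold changes 0.12 and 0.07, SE 0.34 each). These 4 genes were picked after their values were seen.

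Lists of textbook genes were then read across the comparison, each beside the all-gene shares above. Several share members with the genes in both the gate list and the list lower in the double mutant. They are thus not separate evidence for the higher values of those genes. Of the microfold genes, Ccl9, Ccl6, Ccl20, Pglyrp1, Tnfaip2 and Tnfrsf11b were shared. Other shared genes given below were Myo15b, Mep1a, Sis, Lyz1, Reg3g, Lypd8, Fabp1, Apoc3, Apoa4, Ces2c, Ambp, Serpina1b, Scg5, Hamp and Hmox1. Of the 12 tested microfold genes, 2 were called higher (Ccl9 and Ccl6), 10 were higher and 1 lower at an unadjusted p under 0.05, and the median log2 fold change was 0.81. Ccl20, the chemokine that draws lymphocytes and dendritic cells to the epithelium over Peyer's patches, was at 282, 304 and 378 CPM in Hnf4a-removed samples, against 41.0, 110 and 55.4 CPM in Hnf4g-removed samples. The groups lay far apart, yet the gene did not pass (2.22, SE 0.42, adjusted p = 0.0633). Gp2, the microfold receptor for bacterial fimbriae, averaged 2108 ± 315 CPM in Hnf4a-removed and 1315 ± 428 CPM in Hnf4g-removed mTEClo (0.68, SE 0.21, adjusted p = 0.424). Spib, the transcription factor that microfold cells need, averaged 986 ± 140 CPM in Hnf4a-removed and 870 ± 90.3 CPM in Hnf4g-removed mTEClo, with overlap (0.18, SE 0.13, adjusted p = 0.794). The exception was Marcksl1, at 100 CPM in Hnf4a-removed and 168 CPM in Hnf4g-removed mTEClo (-0.74, SE 0.17, adjusted p = 0.162). Gp2, Spib and Marcksl1 were named after their values were seen. The list as a whole summed to 6064 to 8114 CPM in Hnf4a-removed and 3919 to 5298 CPM in Hnf4g-removed samples, without overlap. DESeq2 called 5 of its genes higher and 1 lower, and limma voom 2 and 0.

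Of the 29 tested brush border genes, 1 was called higher (Cdhr5), 9 were higher and 0 lower at an unadjusted p under 0.05, and the median was 0.20. Mep1a, the alpha subunit of the protease meprin, was at 52.8, 61.2 and 78.9 CPM in Hnf4a-removed samples, against 5.56, 20.0 and 12.1 CPM in Hnf4g-removed samples. The groups lay apart, with replicate 1 lowest in both (2.35, SE 0.48, adjusted p = 0.107). Myo15b, a myosin-like gene, was at 175, 196 and 166 CPM in Hnf4a-removed and 128, 108 and 90.7 CPM in Hnf4g-removed samples (0.72, SE 0.13, adjusted p = 0.0646). Mep1b, the beta subunit of meprin, averaged 10.1 CPM in Hnf4a-removed and 2.28 CPM in Hnf4g-removed mTEClo, with samples apart (2.12, SE 0.73, adjusted p = 0.497). Other enzymes of this membrane overlapped and had fold changes on both sides of 0, among them Sis (0.42), Ggt1 (0.33), Enpep (0.18), Mgam (-0.18), Anpep (-0.23), Dpp4 (-0.55) and Lct (-1.05). These 8 genes were named after their values were seen. The 31 brush border genes in the table summed to 2453 to 2781 CPM in Hnf4a-removed and 2029 to 2326 CPM in Hnf4g-removed samples. DESeq2 called 6 of them higher and 0 lower, and limma voom 1 and 0.

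In the gut antimicrobial list, 1 of 17 tested genes was called (Lyz1), 4 were higher and 0 lower at an unadjusted p under 0.05, and the median was 0.12. DESeq2 called 2 of the list higher and 0 lower, and limma voom 1 and 0. Reg3g, a lectin that kills Gram-positive bacteria, was at 2143, 4591 and 6023 CPM in Hnf4a-removed samples, against 1338, 1703 and 1443 CPM in Hnf4g-removed samples. It was the list's most abundant gene, and the list summed to 3444 to 8106 CPM in Hnf4a-removed and 1951 to 2802 CPM in Hnf4g-removed samples. The samples lay apart, but the Hnf4a-removed ones spread widely (1.51, SE 0.28, adjusted p = 0.0633). Lypd8, which keeps flagellated bacteria off the colonic epithelium, was at 93.0, 37.5 and 170 CPM in Hnf4a-removed and 15.4, 47.3 and 15.8 CPM in Hnf4g-removed samples, with overlap (1.94, SE 0.48, adjusted p = 0.258).

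Intestinal lipid genes gave 1 call (Fabp1) among 22 tested, with 4 higher and 1 lower at an unadjusted p under 0.05 and a median of 0.13. Apoc3, an apolipoprotein of triglyceride-rich particles, was at 10.6, 8.18 and 8.93 CPM in Hnf4a-removed samples, against 0, 4.07 and 0 CPM in Hnf4g-removed samples. Apoa4, its neighbour on chromosome 9, was at 22.5, 20.3 and 24.2 CPM in Hnf4a-removed and 0, 14.3 and 7.15 CPM in Hnf4g-removed samples. In both genes Hnf4g-removed replicate 2 stood above the others of its group, and neither passed (2.79, SE 0.94, adjusted p = 0.488 and 1.63, SE 0.72, adjusted p = 0.622). Intestinal transporters had a median of 0.01 over 22 genes, with 1 higher and 1 lower at an unadjusted p under 0.05. The amino acid transporter Slc6a19 ran the other way, at 1.66, 0.584 and 2.39 CPM in Hnf4a-removed and 9.09, 6.37 and 5.33 CPM in Hnf4g-removed samples (-2.16, SE 0.61, adjusted p = 0.374). Fluid secretion genes (17 tested, 2 higher and 1 lower) had a median of 0.07 and xenobiotic genes (25 tested, 2 higher and 0 lower) one of 0.27, Ces2c, an intestinal carboxylesterase, being at 23.1, 37.4 and 65.7 CPM in Hnf4a-removed and 9.64, 11.5 and 22.2 CPM in Hnf4g-removed samples (1.53, SE 0.42, adjusted p = 0.343). DESeq2 called 1 lipid gene and 1 xenobiotic gene higher, and 0 transporter or fluid secretion genes. Limma voom called 0 in these 4 lists.

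Liver genes were mixed. Of 33 tested plasma protein genes 0 were called by edgeR and limma voom and 2 by DESeq2, 5 were higher and 1 lower at an unadjusted p under 0.05, and the median was 0.08. Ambp, the precursor of alpha-1-microglobulin, was at 14.4, 5.40 and 54.2 CPM in Hnf4a-removed samples, against 0.185, 1.95 and 2.67 CPM in Hnf4g-removed samples. Serpina1b, an alpha-1-antitrypsin gene with near-identical copies, was at 2.27, 5.26 and 4.62 CPM in Hnf4a-removed and 0, 0.708 and 0.701 CPM in Hnf4g-removed samples. Both lay apart and neither passed (3.89, SE 0.86, adjusted p = 0.162 and 3.02, SE 0.85, adjusted p = 0.366). Hepatocyte metabolism (22 tested, 2 higher and 2 lower, median 0.05) ran both ways, with Pklr, the liver pyruvate kinase, at 1.66, 4.97 and 8.29 CPM in Hnf4a-removed and 0.556, 0.354 and 0.701 CPM in Hnf4g-removed samples, and Fbp1, a gluconeogenic phosphatase, at 0.907, 1.17 and 0.957 CPM in Hnf4a-removed and 1.85, 3.36 and 8.27 CPM in Hnf4g-removed samples. Neither passed (adjusted p = 0.397 for Pklr and 0.544 for Fbp1). By DESeq2, 0 genes of this metabolism list were called higher and 1 lower, and by limma voom 0 in either direction. The 20 tested transcription factors of gut and liver had a median of -0.21, with 0 called by edgeR, DESeq2 and limma voom, and 0 higher and 1 lower (Creb3l3, 0.302, 0.584 and 0.797 CPM in Hnf4a-removed and 0.185, 3.90 and 8.13 CPM in Hnf4g-removed samples) at an unadjusted p under 0.05.

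Genes of other mimetic cells showed 0 calls by edgeR and limma voom in each list; DESeq2 called 1 neuroendocrine gene higher, 2 goblet genes lower and 0 in the others. Tuft genes (23 tested) had a median of 0.12 and 2 higher and 0 lower at an unadjusted p under 0.05, with Il17rb, a receptor subunit for interleukin 25, at 188, 216 and 191 CPM in Hnf4a-removed and 173, 162 and 136 CPM in Hnf4g-removed samples (0.34, SE 0.12, adjusted p = 0.497). Neuroendocrine genes (25 tested) had a median of 0.36 and 4 higher and 1 lower, with the granule protein Scg5 at 108, 78.3 and 85.3 CPM in Hnf4a-removed and 57.1, 57.2 and 55.8 CPM in Hnf4g-removed samples (0.67, SE 0.14, adjusted p = 0.126); Scg5 is also one of the 154 genes. Goblet and airway secretory genes (20 tested) had the lowest median of these, -0.77, with 1 higher and 5 lower. Scgb1a1, the club cell secretoglobin, was at 53.2, 68.1 and 112 CPM in Hnf4a-removed samples, against 240, 161 and 262 CPM in Hnf4g-removed samples, and Wfdc2 at 126, 161 and 198 CPM in Hnf4a-removed against 325, 367 and 259 CPM in Hnf4g-removed samples. Both lay apart and did not pass (-1.51, SE 0.29, adjusted p = 0.0694 and -0.97, SE 0.21, adjusted p = 0.143). In this list 5 genes lay apart in the lower direction and 1 in the higher, and 6 of the 20 had a fold change above 0. The list summed to 2829 to 4332 CPM in Hnf4a-removed and 3818 to 4339 CPM in Hnf4g-removed samples, with overlap. Its most abundant genes, Fcgbp (0.10) and Bpifa1 (0.23), overlapped and were named after their values were seen. Wfdc2 is also among the neighbours of Hnf4a given below.

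Ciliated (20 tested, median 0.12), keratinocyte (23, 0.03), muscle (18, -0.01) and pancreatic acinar genes (10, -0.28) each had at most 2 genes in either direction at an unadjusted p under 0.05. Aire-stage genes (17 tested) had a median of -0.16 with 0 higher and 1 lower, which was Fezf2, the other regulator of tissue antigens, at 51.9, 70.3 and 79.4 CPM in Hnf4a-removed and 62.0, 110 and 123 CPM in Hnf4g-removed samples (-0.55, SE 0.24, adjusted p = 0.604). Proliferation genes (31 tested, median -0.05) had 0 in either direction at that level. Interferon response genes (25 tested) had a median of 0.21 with 22 above 0 (88%, beside 49.3% of all genes tested), 6 higher and 1 lower. By edgeR, DESeq2 and limma voom 0 of them were called in either direction. They summed to 2980 to 3313 CPM in Hnf4a-removed and 2452 to 2921 CPM in Hnf4g-removed samples. Gbp2, an interferon-induced GTPase, was at 55.8, 68.1 and 31.7 CPM in Hnf4a-removed and 19.3, 28.1 and 31.6 CPM in Hnf4g-removed samples (0.97, SE 0.37, adjusted p = 0.545). Cortical epithelium genes (12 tested, median 0.07) summed to 2579 to 2756 CPM in Hnf4a-removed and 1884 to 2558 CPM in Hnf4g-removed samples. Most of this sum was Krt8, which is also in the medullary list and averaged 2173 CPM in Hnf4a-removed and 1806 CPM in Hnf4g-removed mTEClo. At an unadjusted p under 0.05, 1 gene was higher (Krt8) and 1 lower. The lower one was Psmb11, at 0.612 CPM in Hnf4a-removed and 2.69 CPM in Hnf4g-removed mTEClo.

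**Figure D4:**
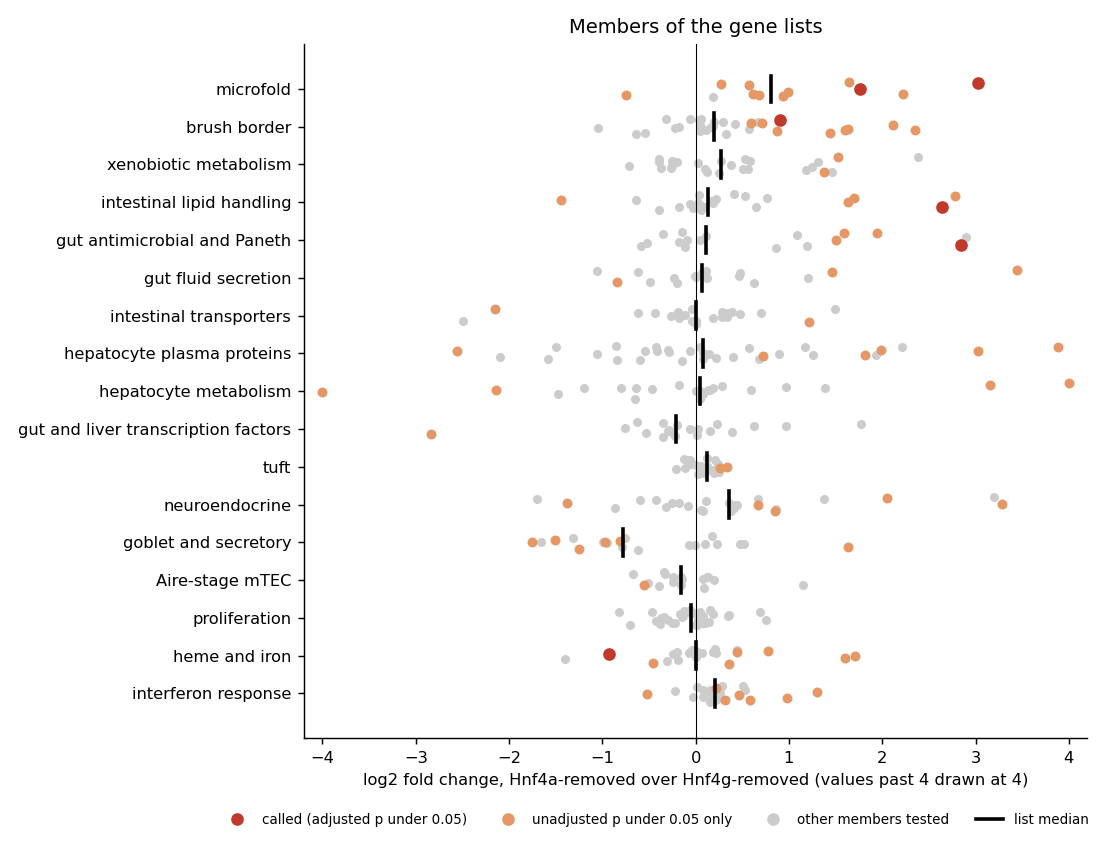
Log2 fold change of Hnf4a-removed over Hnf4g-removed mTEClo for the tested members of 17 gene lists; each point is a gene, red where called, orange where only the unadjusted p was under 0.05, grey otherwise, and the black bar is the list median. Microfold genes have the highest median (0.81) and goblet and secretory genes the lowest (-0.77).

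Iron and heme genes were read beside Slc25a37. Of the 21 tested, 1 was called lower, 5 were higher and 2 lower at an unadjusted p under 0.05, and the median was 0.01. DESeq2 called 1 of the list higher and 1 lower, and limma voom 0 and 1. Hamp, the iron hormone hepcidin, was at 15.9, 44.3 and 49.6 CPM in Hnf4a-removed and 5.93, 17.9 and 9.68 CPM in Hnf4g-removed samples, with overlap. Hmox1, which breaks down heme, was at 39.8, 50.2 and 59.0 CPM in Hnf4a-removed and 33.0, 26.6 and 27.2 CPM in Hnf4g-removed samples, apart but not passing (0.78, SE 0.21, adjusted p = 0.322). Slc25a38, the mitochondrial glycine carrier that feeds heme synthesis, averaged 40.5 CPM in Hnf4a-removed and 46.3 CPM in Hnf4g-removed mTEClo (-0.19, SE 0.16); it was named after its values were seen.

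On the lower side no gene beside Slc25a37 passed, and 8 others of small p with at least 5 CPM and no overlap are given as values. Nfe2l3, a transcription factor related to NRF2, was at 46.4, 42.8 and 29.8 CPM in Hnf4a-removed samples, against 127, 107 and 75.3 CPM in Hnf4g-removed samples (-1.37, SE 0.25, adjusted p = 0.0572). Rnf187, a ubiquitin ligase, was at 31.4, 22.8 and 30.8 CPM in Hnf4a-removed and 97.4, 89.1 and 47.4 CPM in Hnf4g-removed samples (-1.46, SE 0.26, adjusted p = 0.0572). Trp53rka, a p53 kinase gene with a near-identical copy in the genome, lies on chromosome 2 with its start site 1986.5 kb from that of Hnf4a, and was at 4.38, 5.99 and 4.78 CPM in Hnf4a-removed and 19.7, 24.4 and 15.2 CPM in Hnf4g-removed samples (-1.96, SE 0.35, adjusted p = 0.0572). In all 3 the control mean lay between those of the single mutants, at 64.7 CPM for Nfe2l3, 40.3 CPM for Rnf187 and 11.5 CPM for Trp53rka. The rest were Scgb1a1 (above), Foxj3, Plbd2, Lzts2 and the RNA-binding Lsm4, with log2 fold changes of -1.51 to -0.80 and adjusted p of 0.0694 to 0.127. None of the 8 was in the gate list or the list lower in the double mutant.

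Since Serinc3 lies beside Hnf4a, the other genes of that stretch of chromosome 2 were read too. Of 30 genes tested within 1 Mb of Hnf4a, 1 was called (Serinc3), 8 had an unadjusted p under 0.05 (26.7%) and 8 had samples apart (26.7%). Over all genes tested, 3.39% were higher and 4.32% lower at that p, and 11.3% had samples apart in either direction. Apart from Serinc3 the 7 with an unadjusted p under 0.05 all had fold changes below 0: Wfdc2 (-0.97), Sys1 (-0.93), Matn4 (-1.43), Slpi (-1.94), Tox2 (-1.20), Pkig (-0.55) and Ttpal (-0.46). In Hnf4a-removed mTEClo Sys1 averaged 34.7, Matn4 6.66, Slpi 2.03, Tox2 2.41, Pkig 15.3 and Ttpal 30.5 CPM. In Hnf4g-removed mTEClo Sys1 averaged 66.2, Matn4 18.0, Slpi 7.78, Tox2 5.56, Pkig 22.3 and Ttpal 42.2 CPM. Their adjusted p was 0.143 to 0.626 and the median of all 30 was -0.05. Within 5 Mb there were 101 genes, with 13 at an unadjusted p under 0.05 (12.9%) and 18 apart (17.8%). Around Hnf4g on chromosome 3 there were 0 genes tested within 1 Mb and 7 within 5 Mb, of which 0 were called and 2 had an unadjusted p under 0.05.

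**Figure D5:**
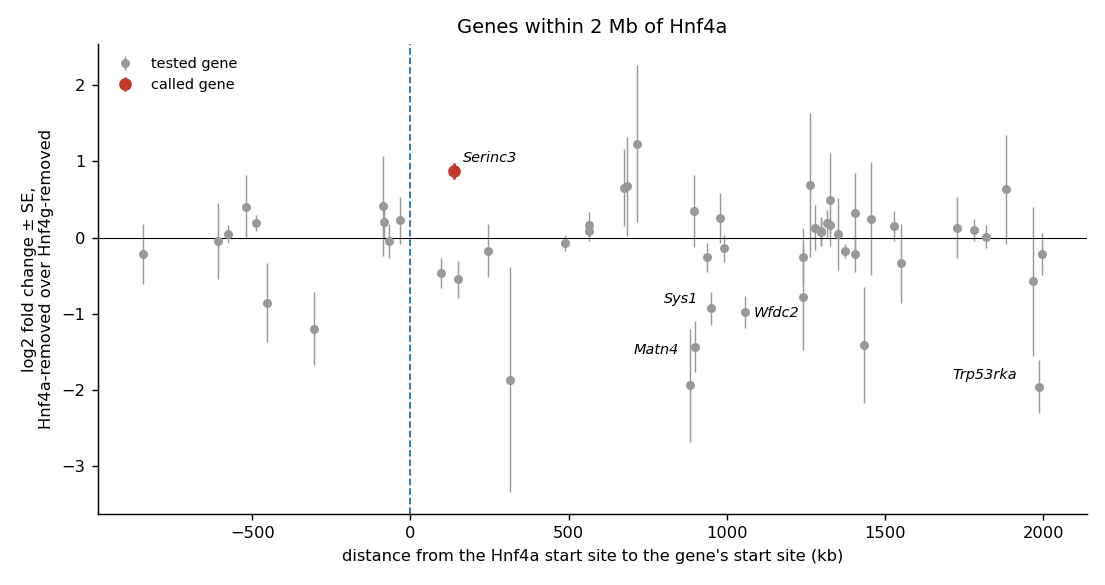
Log2 fold change ± SE of Hnf4a-removed over Hnf4g-removed mTEClo for genes tested within 2 Mb of Hnf4a, against the distance of their start sites from that of Hnf4a in kb (dashed line at 0). Serinc3, the called gene, stands at 0.87, while Matn4, Sys1 and Wfdc2 stand at -1.43 to -0.93 and Trp53rka, at the right edge, at -1.96.

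Precision varied with level: 10201 of 18775 genes (54.3%) had a 95% interval within -1 to 1 on the log2 scale, and so did 9578 of the 10962 genes with a mean over 10 CPM (87.4%). The median SE was 0.291, and 0.185 for the genes over 10 CPM. The other intervals reached 1 or -1 or beyond.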

How the data were processed

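Thymi were digested, CD45+ cells were depleted and mTEC subsets were flow sorted, and polyadenylated RNA was amplified and fragmented with Tn5 transposase, per the labels' protocols. The kit marks no strand, so reads of a gene and its antisense partner cannot be told apart, and without molecular identifiers PCR copies are counted. Read counts per gene, whole numbers with no normalization, were deposited by the authors in 1 table. STAR 2.7.3a, featureCounts and mm10 were used, per the submitters' processing notes; the annotation and the settings of the counting are not stated there.

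Every column matched 1 sample's title. Genes were tested with edgeR 4.0.16 (R 4.3.3): TMM factors, filterByExpr by group (minimum count 10, minimum total 15), quasi-likelihood F test on all 14 mTEClo samples, which share 1 estimate of the spread, and Benjamini-Hochberg adjustment over the 18775 genes tested, with genes called at an adjusted p under 0.05. CPM (counts scaled to a common total) use TMM-scaled totals of the genes tested. Log2 fold changes are Hnf4a-removed over Hnf4g-removed, with SE or 95% intervals. The lists from double-mutant and control mTEClo (8 samples) and from the wild-type gates (6 samples) had fits of their own, and the test was tried on simulated counts first. Positions are from GENCODE M21 (GRCm38) for 52897 of 55011 symbols, promoters from RefSeq (GRCm38.p6).

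The text names Hnf4a, Hnf4g, Aire, Serinc3, Trim31, Fabp1, Lyz1 and Slc25a37, then per direction up to 10 called genes of largest fold with at least 5 CPM in the higher group, filled up with genes of smallest p whose samples did not overlap, then genes from among the 3 of smallest p in each of 32 textbook lists (615 genes) and the neighbours of Hnf4a with an unadjusted p under 0.05. Gm, Rik and pseudogene names were not given. A few genes that this rule or the lists would name are not reported here. The comparison, the lists and the members were chosen with earlier results of these data known. Alternatives were a fit of the 6 compared samples, RLE factors, no factors, no filter, a stricter filter (1 CPM in 6 samples), DESeq2 1.42.0, limma 3.58.1 voom, a replicate block, leaving out each compared sample and a stricter list threshold (0.01); those on the 154 genes were added after the data were seen.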

Additional observations from a re-analysis of the deposited data

Results flagged for a closer look

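In control mTEClo, Trim31 was at 5.37 CPM in replicate 1, against 14.1 to 15.1 CPM in the other 3 samples. The gap of this sample to the nearest other is 0.897 of the group's range, above Dixon's 95% critical value for 4 samples. It was 1 of 30 pairs of a gene and a group of 4 that were looked at, and chance flags about 1 in 20. The sample is not one of those compared; it lies below the 3 Hnf4a-removed samples (9.93 to 13.8 CPM) and above the 3 Hnf4g-removed samples (0.185 to 0.354 CPM).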

How the results depend on the processing

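RLE factors, no factors and a stricter filter each gave the same 12 calls. The 12 calls fell to 1 (1 higher, 0 lower) in a fit of the 6 compared samples, with 1000 genes at an unadjusted p under 0.05, and rose to 404 (205 higher, 199 lower) with no filter on low counts and 93 (58 higher, 35 lower) with DESeq2, both of which held all 12. Limma voom gave 10, with 8 of the 12. Leaving out 1 compared sample gave 2 to 39 calls, 2 to 11 of them higher and 0 to 28 lower. The cause of these shifts was not tested. Same-numbered samples of the groups correlated at 0.217, 0.0589 and 0.0943 in their deviations, and differently numbered samples at -0.151 to 0.0854. Hnf4g-removed replicate 2 did not correlate best with its own number. Whether samples of the same number share a batch was not tested. A replicate block gave 17 calls (15 higher, 2 lower), 10 of the 12 among them. Hnf4a turned to -0.27 without Hnf4a-removed replicate 2 and -0.18 without Hnf4g-removed replicate 3 (range -0.27 to 0.19), and Hnf4g to 0.079 and 0.019 without Hnf4a-removed replicate 3 and Hnf4g-removed replicate 1 (range -0.22 to 0.079), all with adjusted p above 0.9. With lists at an adjusted p under 0.01, the median of genes lower in the double mutant was 0.87 and of those also in the gate list 1.28. Without 1 sample the 154 genes gave 0.69 to 1.01 and the gate list 0.07 to 0.16. Counts rest on 3 samples a group, and for Trim31 on 5 reads in the Hnf4g-removed group.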
